A study of Mus musculus with 4 samples.

Results

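The receptors described here are 9 genes of the chemokine receptor family, taken by name from the 55421 gene identifiers of the count tables: the CC receptors Ccr1, Ccr2 and Ccr6, the CXC receptors Cxcr3, Cxcr4 and Cxcr6, and the atypical receptors Ccrl2, Ackr2 and Ackr3. The choice used names and no threshold on measured values, though earlier results of these data were known when it was made. RNA was sequenced from wild-type C57BL/6 mice, an inbred strain, in 2 groups of 2 libraries: mice on normal chow (NCD) and mice on a diet rich in fat (HFD), a common model of obesity with insulin resistance. The labels name the material as macrophages of the islet, the hormone-secreting cell cluster of the pancreas, and the protocol starts from frozen islets. The sources used here do not give age, sex or feeding time, nor how macrophages were separated from other islet cells. They also do not say that the libraries came from different mice. The p-values therefore measure only library-to-library spread, which may be technical.

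Chemokines are small secreted proteins that guide the migration of cells, above all of leukocytes. Conventional receptors pass the signal on through inhibitory G proteins, whereas atypical receptors bind chemokines or related proteins without that coupling and mostly scavenge or present them. Inflammatory receptors such as CCR2 on monocytes and CXCR3 on activated T cells draw cells into inflamed tissue, while CXCR4 is made by most leukocytes and by many other cells and retains them where its ligand CXCL12 is made.

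All 9 receptors were higher in HFD. Transcripts of Cxcr6 differed most, at 12-fold by the means of the libraries, followed by Ccr2 at 5.26-fold and Cxcr3 at 5.23-fold. Ccr6, Ackr2, Ccr1 and Ccrl2 rose by 2.86-fold, 2.84-fold, 2.67-fold and 2.19-fold, and Ackr3 by 1.75-fold. Cxcr4, by far the most abundant, rose by only 1.15-fold. Levels are in CPM, counts scaled to a common library total, here after TMM scaling, which evens out differences in composition between libraries. Each rise passed edgeR's quasi-likelihood test across all genes (threshold 0.05 after Benjamini-Hochberg adjustment). The background was high: of 21563 genes tested, 17.9% were called higher in HFD and 14.5% lower. In all 9 receptors both HFD libraries lay above both NCD libraries, a pattern shown by 34.5% of tested genes, while 33.2% had both HFD libraries below. The median log2 change of the 9 was 1.5, against 0.0026 over all genes tested.

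**Figure D1:**
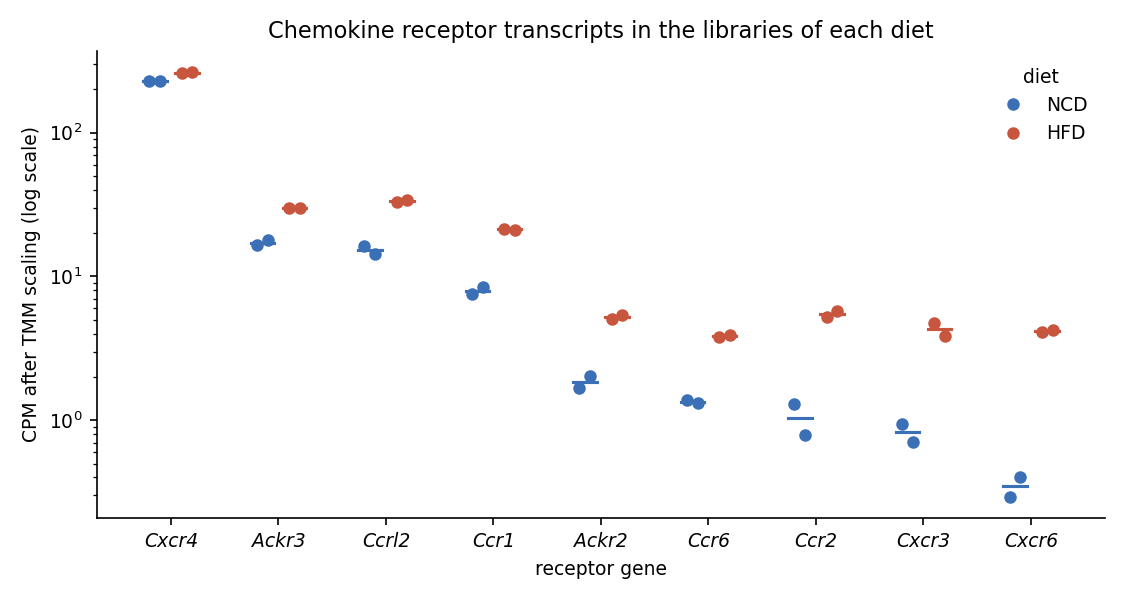
CPM after TMM scaling (log axis) of each receptor gene; points are the 2 libraries of a diet (NCD blue, HFD red) and bars their mean. The HFD points lie above the NCD points in every gene, from about 0.3 to 4 CPM in Cxcr6 and from 228 and 229 to 259 and 264 CPM in Cxcr4.

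The libraries held 56740720 to 64490097 counts. Hormone transcripts outweighed those of macrophages in every library: the summed CPM of 10 endocrine genes was 29830 to 31630, and that of 12 macrophage markers, such as Csf1r and Adgre1, 966 to 1089. In bulk RNA of this kind, more cells of a type and more RNA per cell cannot be told apart. The macrophage list did not rise with the receptors: 3 of its 12 genes were higher and 6 lower, and its sums were 1089 and 1059 CPM in NCD against 966 and 982 CPM in HFD. Its defining genes Adgre1, at 29.5 and 31.9 CPM in NCD against 26.4 and 24.3 CPM in HFD, and Csf1r, at 90.1 and 82.9 against 101 and 99.9 CPM, were present in every library, and the list also holds Cx3cr1. Lyz2, the most abundant gene of the list, went from 381.2 and 372.2 to 279.6 and 275.0 CPM. That fall was about as large as the fall of the whole sum. Cd14, of the same list, rose from 29.8 and 34.8 to 97.4 and 110.5 CPM. Lists of other leukocytes did rise. Of 10 pan-leukocyte genes 9 were higher (402 and 417 CPM in NCD, 925 and 877 CPM in HFD), among them Ptprc, which encodes CD45. All 13 T cell genes were higher (57.8 and 58.4 against 169 and 148 CPM), as were 9 of 10 B cell genes (36.6 and 36.8 against 212 and 213 CPM). Most of the T cell sum in NCD was Il7r, at 41.68 and 43.25 CPM against 58.47 and 54.35 CPM in HFD. The median log2 change of the 13 T cell genes was 3.65, or 3.30 with 1 gene without a count in NCD set to a lower bound. Of the natural killer cell genes 5 of 6 tested were higher (0.481 and 0.660 against 6.10 and 7.00 CPM), and 7 of 8 tested monocyte genes, a list that holds Ccr2 itself (51.5 and 47.5 against 469 and 435 CPM). Most of the monocyte sum was Fn1 (32.8 and 29.5 against 345.8 and 310.5 CPM) and Vcan (8.8 and 9.5 against 64.8 and 69.2 CPM). Ly6c2 was the tested monocyte gene that was not called (edgeR adjusted p = 0.0524). Dendritic cell genes, a list that holds Ccr7, were higher in 5 of 7 tested (20.0 and 18.7 against 141 and 119 CPM) and plasma cell genes in 4 of 5 tested (336 and 341 against 606 and 665 CPM). Ccr7 alone, at 8.14 and 7.30 CPM in NCD against 102.8 and 81.57 CPM in HFD, made up most of the dendritic cell sum in HFD. Most of the plasma cell sum in NCD was Xbp1, at 245.1 and 242.5 CPM against 212.7 and 256.8 CPM in HFD. Xbp1 was the tested plasma cell gene that was not called. Of 9 neutrophil genes only 2 could be tested, with 1 higher, and 4, among them S100a8 and Ly6g, had no count in any library. Fibroblast and stellate cell genes were higher in 10 of 10 (196 and 194 against 1393 and 1426 CPM). All 8 acinar genes, of the digestive enzyme cells around the islet, were higher too (394 and 412 against 2802 and 3168 CPM), while of the 10 endocrine genes 2 were higher and 7 lower. Blood endothelial genes split, with 4 of 9 higher and 3 lower (2336 and 2397 against 2532 and 2538 CPM), and of 6 tested lymphatic endothelial genes 2 were higher and 1 lower (236 and 231 against 308 and 324 CPM). Within the lymphatic list Pdpn rose from 10.08 and 9.905 to 92.0 and 105.6 CPM, while Prox1 fell from 115.2 and 110.5 to 86.58 and 87.35 CPM. Some of these counts of called genes rested on single libraries. Fewer monocyte genes were called higher without either HFD library. Fewer dendritic cell genes were called higher without NCD replicate 1 or without either HFD library. Only 1 macrophage gene was called higher when any 1 library was left out, and 3 were called lower without NCD replicate 1 or HFD replicate 1. The natural killer cell count fell to 3 without HFD replicate 1 and to 2 without HFD replicate 2. Mmp8, the neutrophil gene called higher, was not called without HFD replicate 1 (edgeR adjusted p = 0.0545). Of the blood endothelial genes 1 was called lower without HFD replicate 1, and of the endocrine genes 1 was called higher without NCD replicate 2, HFD replicate 1 or HFD replicate 2. What part these shifts have in the receptor changes was not tested.

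**Figure D2:**
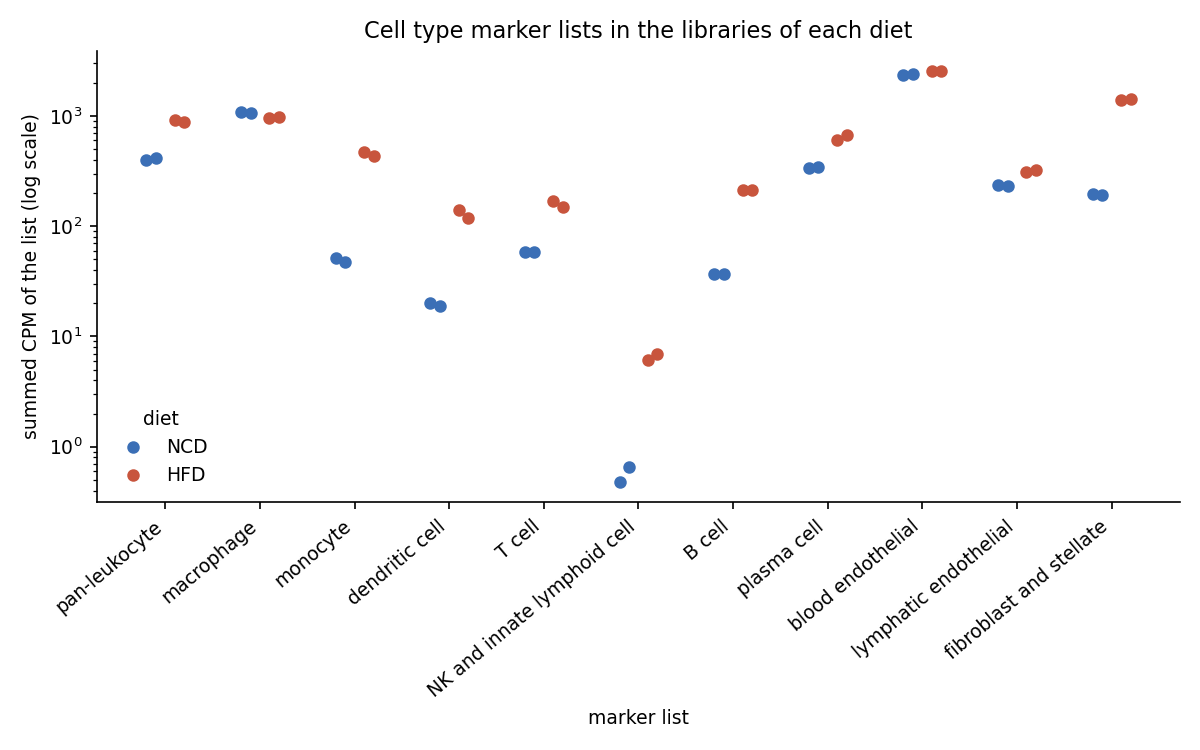
Summed CPM on unscaled library totals (log axis) of each marker list in the 2 libraries of a diet (NCD blue, HFD red). The lists of monocytes, dendritic cells, lymphocytes and fibroblasts are higher in HFD, while the macrophage list is slightly lower, at 966 and 982 against 1089 and 1059 CPM. The fall of the macrophage list is about that of Lyz2, its most abundant gene. Fn1 and Vcan make up most of the monocyte sum, Ccr7 most of the dendritic cell sum in HFD, and Xbp1 most of the plasma cell sum in NCD.

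Among the CC receptors, Ccr1 was the most abundant. CCR1 is a receptor of monocytes, macrophages and neutrophils for CCL3, CCL5 and related ligands. Its gene stood at 7.53 and 8.39 CPM in NCD against 21.5 and 20.9 CPM in HFD. The diets were clearly apart, and the 2 HFD libraries nearly coincided (log2 change 1.41 ± 0.12 SE, edgeR adjusted p = 0.000779). Ccr2, whose product brings inflammatory monocytes out of the bone marrow and into tissue, stood at 1.30 and 0.788 CPM in NCD against 5.26 and 5.74 CPM in HFD. Its NCD libraries, at 84 and 49 counts, differed more from each other than its HFD libraries, at 326 and 325 counts (log2 change 2.39 ± 0.30 SE, edgeR adjusted p = 0.00331). Ccr6, the receptor of CCL20 on B cells, dendritic cells and T helper 17 cells, stood at 1.38 and 1.32 CPM in NCD against 3.81 and 3.90 CPM in HFD. Replicates of Ccr6 agreed closely in both diets (log2 change 1.51 ± 0.23 SE, edgeR adjusted p = 0.00587). Summed over the 3 CC receptors, the sum was 10.2 and 10.5 CPM in NCD against 30.6 and 30.5 CPM in HFD.

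The CXC receptors held both extremes. Cxcr6, whose product binds the membrane-anchored chemokine CXCL16 and marks activated and tissue-resident T cells and innate lymphocytes, went from 19 and 25 counts in NCD to 255 and 240 counts in HFD. In CPM this was 0.295 and 0.402 against 4.12 and 4.24. It was the closest of the 9 to the detection limit in NCD, where the floor used here was 12 counts per library (log2 change 3.58 ± 0.30 SE, edgeR adjusted p = 0.000807). The next lowest in NCD were Cxcr3, at 61 and 44 counts, and Ccr2, at 84 and 49 counts. Cxcr3, the receptor for the interferon-induced ligands CXCL9, CXCL10 and CXCL11 on activated T cells and natural killer cells, stood at 0.946 and 0.708 CPM in NCD against 4.76 and 3.88 CPM in HFD. The replicates of each diet differed by less than the diets did (log2 change 2.38 ± 0.28 SE, edgeR adjusted p = 0.00262). Cxcr4 stood at 229 and 228 CPM in NCD against 259 and 264 CPM in HFD. The diets did not overlap, but the step between them was small (log2 change 0.20 ± 0.04 SE, edgeR adjusted p = 0.0177), and the call was lost when any 1 of the 4 libraries was left out: without NCD replicate 1 edgeR adjusted p was 0.0641, without NCD replicate 2 it was 0.0709, without HFD replicate 1 it was 0.0546 and without HFD replicate 2 it was 0.0895.

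All 3 atypical receptors rose as well, with a median log2 change of 1.13. Ccrl2 encodes a receptor that binds the chemoattractant chemerin and presents it to neighbouring cells without signalling. It stood at 16.3 and 14.4 CPM in NCD against 32.7 and 34.2 CPM in HFD, so that each HFD library held about as much as both NCD libraries together (log2 change 1.13 ± 0.10 SE, edgeR adjusted p = 0.000981). Ackr2, whose product takes up and degrades inflammatory CC chemokines and is best known from lymphatic endothelium, stood at 1.67 and 2.03 CPM in NCD against 5.09 and 5.42 CPM in HFD. Its replicates lay close together in both diets (log2 change 1.5 ± 0.21 SE, edgeR adjusted p = 0.00488). Ackr3 encodes a scavenger of CXCL12 and CXCL11 that endothelial and stromal cells make. It stood at 16.5 and 17.9 CPM in NCD and at 30.1 CPM in both HFD libraries (log2 change 0.81 ± 0.09 SE, edgeR adjusted p = 0.00209). The 3 atypical receptors together went from 34.4 and 34.3 CPM to 68.0 and 69.6 CPM.

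Compared with each other per kilobase of exon, the receptors kept a steep order. Cxcr4 stood at 127 ± 0.472 CPM per kb in NCD and 145 ± 1.94 CPM per kb in HFD (SD, n = 2 here and below) and made up 88.9% of the summed CPM per kb of the 9 in both NCD libraries and 79.0% and 79.3% in HFD. Ccrl2, Ackr3 and Ccr1 followed in this order in both diets, at 5.89 ± 0.509, 5.14 ± 0.290 and 2.81 ± 0.215 CPM per kb in NCD and at 12.9 ± 0.405, 8.996 ± 0.00164 and 7.49 ± 0.142 CPM per kb in HFD. Below them the order changed with diet. In NCD, Ackr2 (0.592 ± 0.0796 CPM per kb) and Ccr6 (0.582 ± 0.0187 CPM per kb) overlapped, Cxcr3 came next (0.478 ± 0.0973 CPM per kb), and Cxcr6 (0.180 ± 0.0393 CPM per kb) and Ccr2 (0.155 ± 0.0538 CPM per kb) overlapped at the bottom. In HFD, Cxcr3 (2.50 ± 0.359 CPM per kb) and Cxcr6 (2.16 ± 0.0440 CPM per kb) stood above Ackr2 (1.68 ± 0.0756 CPM per kb) and Ccr6 (1.66 ± 0.0279 CPM per kb), which again overlapped, and Ccr2 remained lowest (0.814 ± 0.0496 CPM per kb). Exon length is the union of all annotated transcripts, which is 6760 bases for Ccr2 and 1931 for Cxcr6.

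Set against the CD45 gene Ptprc in the same library, a ratio that needs no scaling between libraries, the receptors did not all move alike. Ptprc itself stood at 54.7 and 52.6 CPM in NCD against 134 and 130 CPM in HFD. The ratios of Cxcr6, Ccr2 and Cxcr3 were about 2 times as high in HFD or more: per 1000 Ptprc counts there were 5.38 and 7.64 counts of Cxcr6 in NCD and 30.7 and 32.5 in HFD. For Ccr2 these numbers were 23.8 and 14.97 against 39.2 and 44.1, and for Cxcr3 17.3 and 13.4 against 35.5 and 29.8. The ratios of Ccr6, Ackr2 and Ccr1 in HFD were within 1.16, 1.15 and 1.08 times those in NCD, as for Ccr1 with 138 and 159 against 160 and 161 counts per 1000, and those of Ackr2 overlapped between the diets. The remaining 3 were lower relative to Ptprc in HFD: Ccrl2 at 297 and 273 against 244 and 263, Ackr3 at 302 and 340 against 224 and 231, and Cxcr4 at 4188 and 4333 against 1932 and 2030. Against the summed counts of the 10 pan-leukocyte genes, 6 receptors were higher in both HFD libraries and 2, Cxcr4 and Ackr3, lower in both, while Ccrl2 overlapped. These ratios were chosen after the values were seen and carry no test. They show unequal change between transcripts, not which of the pair changed within a cell.

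**Figure D3:**
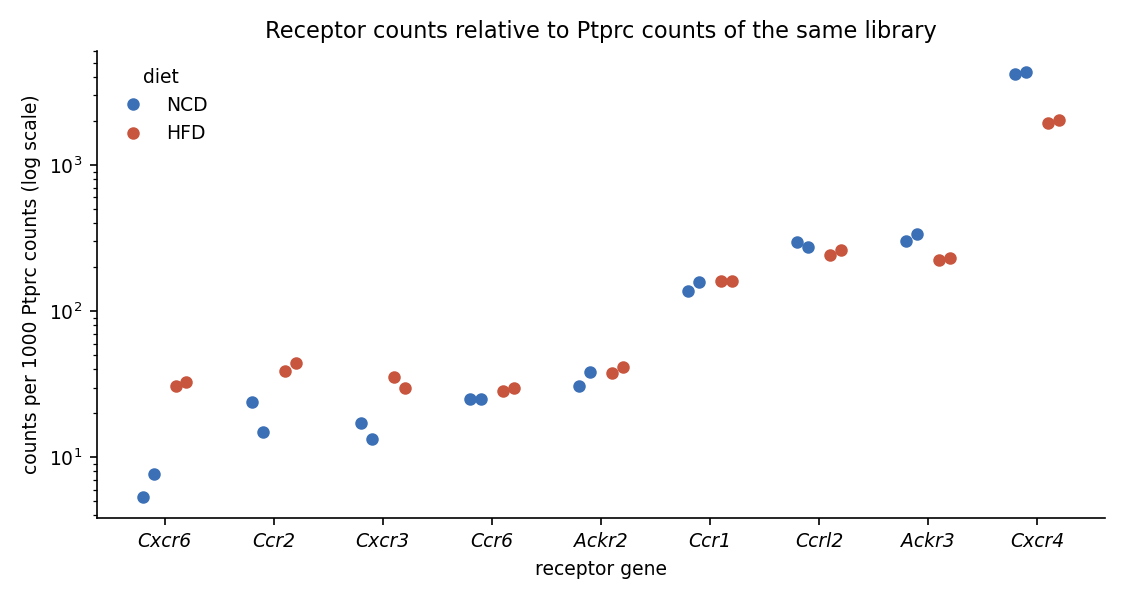
Counts of each receptor per 1000 Ptprc counts of the same library (log axis), ordered by the ratio of HFD to NCD; points are the 2 libraries of a diet (NCD blue, HFD red). Cxcr6, Ccr2 and Cxcr3 are higher in HFD on this scale, Ackr2 overlaps, and Cxcr4 stands at 4188 and 4333 in NCD and at 1932 and 2030 in HFD.

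The other chemokine receptors were less uniform. Of 14 such genes 11 were tested, the rest having too few counts, and 6 were higher in HFD, 1 lower and 4 not called. Without any 1 of the 4 libraries, 3 were called higher. Their median log2 change was 3.07, or 0.77 with the 2 genes without a count in NCD set to a lower bound. Ccr7, the receptor that leads dendritic cells and lymphocytes to lymph nodes, stood at 8.14 and 7.30 CPM in NCD against 103 and 81.6 CPM in HFD (log2 change 3.58 ± 0.14 SE, edgeR adjusted p = 9.4e-05). Its change was as large as that of Cxcr6 and set it above all 9 receptors but Cxcr4 in HFD by CPM. Cxcr5, the B cell receptor for follicle entry, stood at 1.78 and 1.11 against 12.7 and 11.7 CPM (log2 change 3.07 ± 0.26 SE, edgeR adjusted p = 0.000846). The diets did not overlap in either gene. The fractalkine receptor gene Cx3cr1, a marker of resident macrophages, was the receptor that fell, from 12.5 and 9.50 to 2.75 and 3.002 CPM (log2 change -1.93 ± 0.20 SE, edgeR adjusted p = 0.00153).

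The remaining 4 calls among the other receptors rested on few counts and were lost in single-library omissions. Ccr4, on T helper 2 and regulatory T cells, had 8 and 0 counts in NCD and 57 and 82 in HFD (edgeR adjusted p = 0.0375, and 0.0781 and 0.158 without HFD replicate 1 and HFD replicate 2). Ackr1, an endothelial and erythroid chemokine binder, had 8 and 9 counts in NCD and 36 and 122 in HFD (edgeR adjusted p = 0.0259, rising to 0.0903 without NCD replicate 1, 0.0767 without NCD replicate 2 and 0.226 without HFD replicate 2). Ccr8 had no count in NCD and 79 and 13 in HFD, at least 3.97-fold higher than the floor of 12 counts per library (edgeR adjusted p = 0.0281, and 0.0608 and 0.0574 without NCD replicate 1 and NCD replicate 2). That bound rests on HFD replicate 1: without it the bound is 1.21-fold and Ccr8 had too few counts to be tested, while without HFD replicate 2 it is 6.73-fold. Cxcr1 had no count in NCD and 17 and 21 in HFD, at least 1.70-fold higher (edgeR adjusted p = 0.0230, and 0.0727 to 0.152 without any 1 library). Ccr3, Ccr9, Ccr10 and Ackr4 were not called, with 0 to 194 counts in a library, and Ccr1l1, Cxcr2 and Xcr1 had too few counts to be tested. For the chemerin receptor gene Cmklr1, whose product signals where Ccrl2's does not, the libraries gave 21.6 and 18.0 CPM in NCD against 25.1 and 23.9 CPM in HFD (edgeR adjusted p = 0.107), and for Gpr1, the other chemerin receptor gene, 4 counts in each NCD library and 12 and 11 in HFD (edgeR adjusted p = 0.223).

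Ligands of the 9 receptors rose in most cases. Of 17 ligand genes 16 were tested, and 12 were higher in HFD, none lower and 4 not called (median log2 change 1.96). Fewer ligands were called higher when any single library was left out. With edgeR, 0 ligands were lower at an unadjusted p under 0.05, and DESeq2 and limma-voom also called 0 lower. For CCR2, Ccl2 went from 12.3 and 12.8 to 64.9 and 69.4 CPM (log2 change 2.42 ± 0.08 SE, edgeR adjusted p = 6.05e-05) and Ccl7 from 5.01 and 5.08 to 29.5 and 30.3 CPM (log2 change 2.56 ± 0.10 SE, edgeR adjusted p = 9.91e-05). Ccl12, the third ligand of CCR2 in mice, had 12 or 13 counts in every library. That is at the floor of 12 counts used here, too few to show whether it changed (log2 change -0.018 ± 0.72 SE). For CCR1, Ccl9 went from 3.38 and 5.27 to 40.98 and 41.8 CPM, Ccl6 from 11.6 and 11.1 to 38.4 and 37.0 CPM and Ccl3 from 21.3 and 21.9 to 39.4 and 37.3 CPM (edgeR adjusted p = 0.000415, 0.000184 and 0.00123). Ccl5, another ligand of CCR1, stood at 26.8 and 24.2 CPM in NCD against 27.3 and 24.8 CPM in HFD (edgeR adjusted p = 0.843).

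Receptor and ligand differed in size of change in several pairs, while Ccr6 and Ccl20, its chemokine ligand, could not be compared. Ccr6 passed the test, but Ccl20 had 0 and 16 counts in NCD and 8 and 0 in HFD, too few to be tested. Cxcr6, the receptor with the largest change, has Cxcl16 as its ligand, which stood at 65.0 and 71.1 CPM in NCD against 80.9 and 80.7 CPM in HFD (log2 change 0.25 ± 0.07 SE, edgeR adjusted p = 0.0403). The Cxcl16 call was lost without 3 of the libraries in turn (edgeR adjusted p = 0.161 without NCD replicate 1, 0.114 without HFD replicate 1, 0.127 without HFD replicate 2), with a replicate block (0.0593) and without the count filter (0.0600). The reverse held for CXCL12, the ligand of CXCR4 and ACKR3, which fibroblasts and other stromal cells make. Cxcl12 went from 6.65 and 7.01 to 42.9 and 48.9 CPM (log2 change 2.75 ± 0.11 SE, edgeR adjusted p = 9.26e-05). Which cells this rise came from was not tested. Rarres2, which encodes chemerin, went from 1.97 and 2.57 to 16.7 and 19.0 CPM (log2 change 2.97 ± 0.19 SE, edgeR adjusted p = 0.000344). Differences between a receptor's change and its ligand's change were not tested.

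Of the CXCR3 ligands, Cxcl10 was called, at 4.25 and 6.85 CPM in NCD against 12.4 and 13.8 CPM in HFD (edgeR adjusted p = 0.0152, and 0.0579 without HFD replicate 2). Cxcl9 stood at 1.94 and 2.19 CPM in NCD against 4.67 and 2.65 CPM in HFD (edgeR adjusted p = 0.118, and 0.0449 without HFD replicate 2), and Cxcl11 at 0 and 13 counts against 46 and 12 (edgeR adjusted p = 0.317). The pair of HFD libraries thus differed for Cxcl9 and Cxcl11, where replicate 1 was the higher. Of further chemokines that ACKR2 takes up, Ccl22 went from 3.19 and 3.70 to 40.5 and 34.7 CPM, Ccl11 from 2.45 and 2.06 to 11.9 and 16.5 CPM, and Ccl4 from 6.42 and 5.53 to 9.46 and 10.9 CPM (edgeR adjusted p = 0.000101, 0.000810 and 0.0174). The call of Ccl4 was lost without NCD replicate 2 and without HFD replicate 2 (edgeR adjusted p = 0.0720 and 0.0792).

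**Figure D4:**
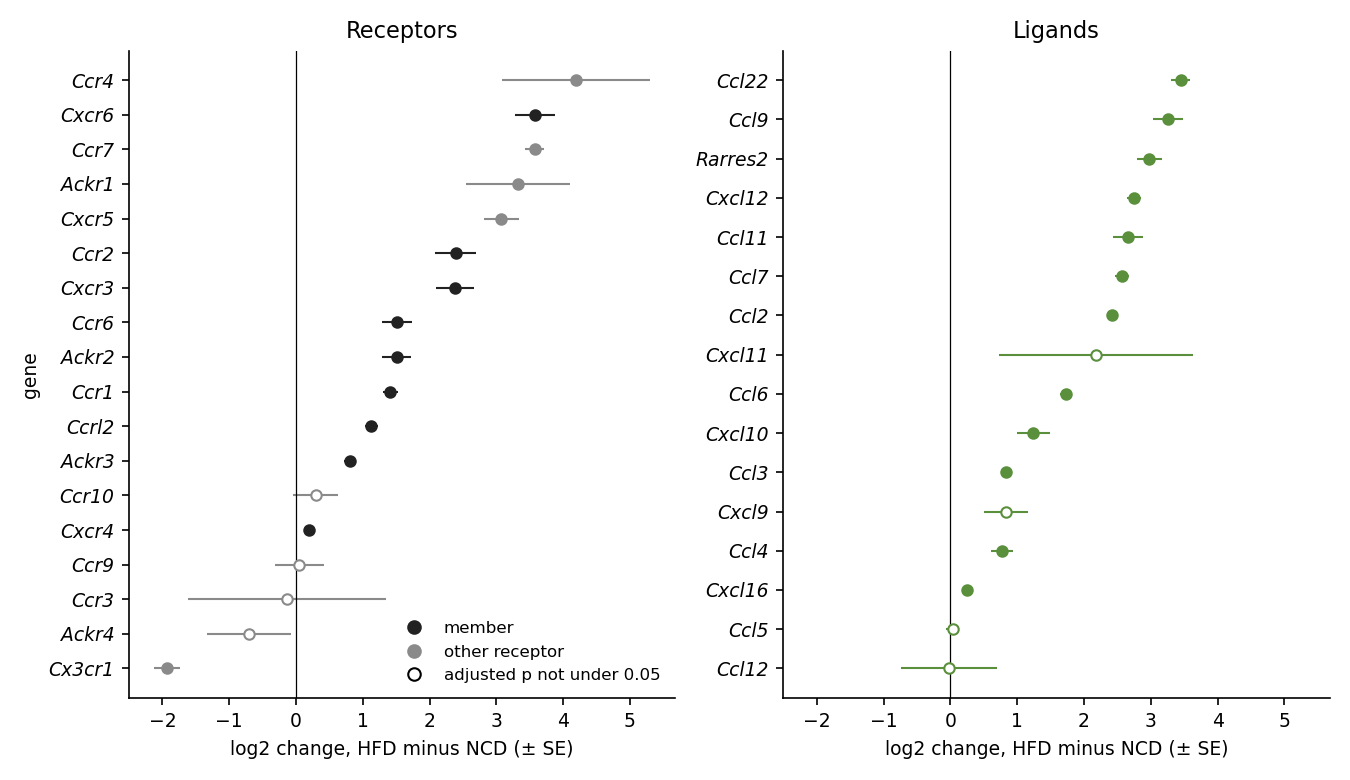
Log2 change from NCD to HFD with its standard error (edgeR) of the tested receptors (left; the 9 receptors described here are black, other receptors grey) and of their ligands (right). Open points did not pass an adjusted p of 0.05, and Ccr8 and Cxcr1, which had no count in NCD, are left out; Cxcr6 stands at 3.58 and Cxcr4 at 0.20.

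Downstream of the receptors, 25 genes of G protein signalling, desensitisation and migration were all tested, of which 13 were higher, 2 lower and 10 not called (median log2 change 0.39). Over all genes tested 17.9% were called higher and 14.5% lower, so 2 of 25 lower is no more than that background. With a replicate block 10 were called higher, and fewer than 13 were when any single library was left out. The migration genes Rac2, a GTPase of leukocytes, and Dock2, its activator in lymphocytes, rose from 12.99 and 13.5 to 54.6 and 52.6 CPM and from 19.0 and 17.3 to 66.3 and 58.6 CPM (edgeR adjusted p = 8.94e-05 and 0.000228). Arrb1, which encodes an arrestin that takes receptors off the membrane, rose from 15.8 and 16.7 to 39.3 and 36.2 CPM (edgeR adjusted p = 0.000555). The 2 genes that fell were Gnai2, the inhibitory G protein subunit through which leukocyte chemokine receptors mainly signal, from 967 and 967 to 632 and 659 CPM (edgeR adjusted p = 0.000329), and Grk3, a kinase that desensitises CXCR4, from 239 and 233 to 176 and 175 CPM (edgeR adjusted p = 0.00154). Grk3 is named because it is 1 of only 2 that fell, which was seen in the data. Gnai2 is not particular to leukocytes, and which cells its fall came from was not tested.

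Of the 9 receptors 5 lie on chromosome 9 of GRCm38, and 3 of them lie in one stretch of receptor genes of 435 kb between the start of Ccr9 and the end of Ccr2. This stretch, looked at after the values were known, held 10 protein-coding genes, 7 of them chemokine receptors. Cxcr6 (chromosome 9, 123806475 to 123811760, forward strand), Ccr1 (123962124 to 123968692, reverse strand) and Ccr2 (124101950 to 124113557, forward strand) were higher in HFD, while Ccr9 and Ccr3 between and beside them were not called, and Xcr1 and Ccr1l1 were not tested. Fyco1, a gene on the opposite strand whose span holds Cxcr6, stood at 73.0 and 74.0 CPM in NCD against 56.5 and 68.7 CPM in HFD (edgeR adjusted p = 0.151, and 0.0292 without HFD replicate 2), with no exon base shared with Cxcr6. Lztfl1, which overlaps the locus of Ccr9, stood at 51.2 and 45.6 CPM in NCD against 49.4 and 50.7 CPM in HFD (edgeR adjusted p = 0.708). Outside it lie Ackr2 (chromosome 9, 121898355 to 121911074), Ccrl2 (chromosome 9, 111054486 to 111057519), Ackr3 (chromosome 1, 90203980 to 90216751), Cxcr4 (chromosome 1, 128588199 to 128592293), Ccr6 (chromosome 17, 8236043 to 8257141) and Cxcr3 (chromosome X, 101731535 to 101734269). Of the distinct 50-base stretches of Ccr2 transcripts, 1.91% also lie in other genes, so its counts are less certain where reads fall there, and the other 8 receptors share none.

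**Figure D5:**
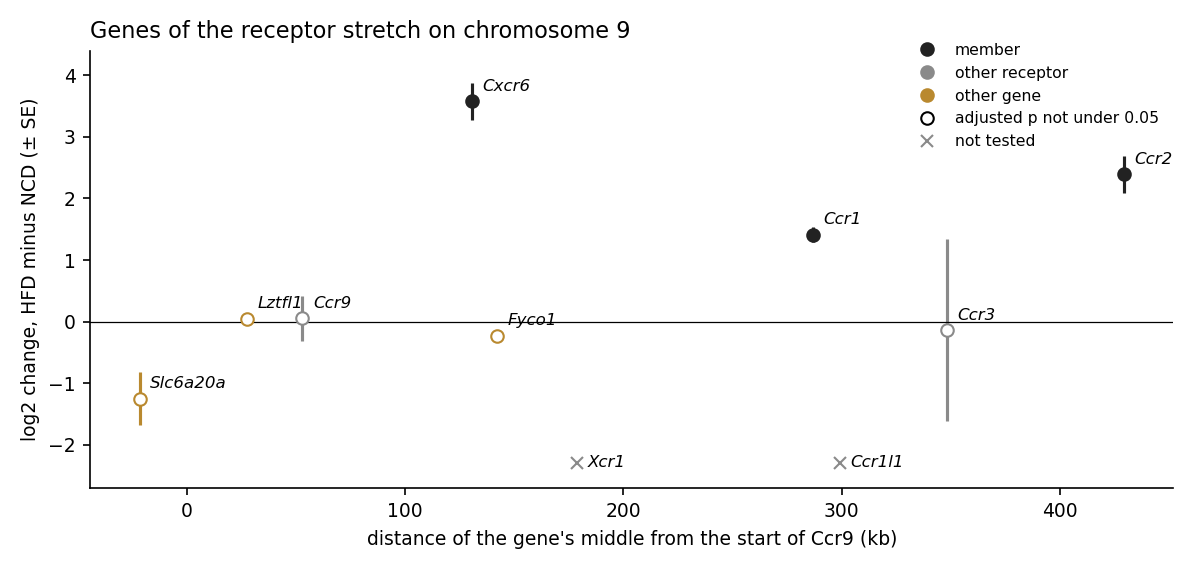
Log2 change from NCD to HFD with its standard error (edgeR) against the distance of each gene's middle from the start of Ccr9, for the 10 protein-coding genes of the receptor stretch; crosses mark genes with too few counts to test. Cxcr6, Ccr1 and Ccr2 are higher in HFD, while no other tested gene of the stretch was called.

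The 250 bases before the RefSeq start sites (GRCm38.p6) were read for all 9 receptors, which have 12 windows because Ccr6 and Ccrl2 have several starts. Windows are shown for receptors at the ends of the range of change and for those where matches cluster: Cxcr6 with the largest change (chr9:123806227-123806476, forward strand), Cxcr3 among the next (chrX:101734148-101734397, reverse strand), Ccrl2 (its farthest start, chr9:111057519-111057768, reverse strand) and Cxcr4 with the smallest change (chr1:128592300-128592549, reverse strand). Capitals mark matches to the motifs named after the sequences, on either strand.
Cxcr6: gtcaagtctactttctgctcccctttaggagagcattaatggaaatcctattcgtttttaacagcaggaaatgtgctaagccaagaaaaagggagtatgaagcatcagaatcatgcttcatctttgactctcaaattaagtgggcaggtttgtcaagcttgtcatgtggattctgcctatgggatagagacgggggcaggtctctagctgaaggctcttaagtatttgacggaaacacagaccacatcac
Cxcr3: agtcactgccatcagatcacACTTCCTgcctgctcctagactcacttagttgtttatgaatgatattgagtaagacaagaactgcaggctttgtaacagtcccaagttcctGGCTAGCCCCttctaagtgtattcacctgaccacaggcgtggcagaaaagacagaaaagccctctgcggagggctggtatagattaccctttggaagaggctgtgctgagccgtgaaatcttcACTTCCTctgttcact
Ccrl2: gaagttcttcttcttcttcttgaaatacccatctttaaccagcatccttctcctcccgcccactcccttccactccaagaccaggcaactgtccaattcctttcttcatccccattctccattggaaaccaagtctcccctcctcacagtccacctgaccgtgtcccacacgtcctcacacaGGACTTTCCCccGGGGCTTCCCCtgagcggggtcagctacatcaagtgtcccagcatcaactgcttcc
Cxcr4: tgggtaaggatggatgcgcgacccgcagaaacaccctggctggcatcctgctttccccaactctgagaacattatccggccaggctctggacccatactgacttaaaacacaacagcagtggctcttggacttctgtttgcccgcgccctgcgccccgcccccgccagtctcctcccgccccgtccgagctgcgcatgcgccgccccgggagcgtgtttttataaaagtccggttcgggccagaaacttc
Searched on both strands were GGG followed after any 5 bases by CC, a loose form of the NF-κB site, TGANTCA for AP-1, AGGAAGT for ETS factors, TTCNNNGAA for STAT factors and a pair of TTTC runs 2 bases apart for interferon response elements. The loose NF-κB form was in 5 of the 12 windows and in 45.8% of 32851 windows of the same length before all genes. In the Ccrl2 window it matched 3 times between 68 and 46 bases before the start, with overlap between matches. The ETS form was in 2 windows (Cxcr3 and Ccr6) against 7.69% of all, the STAT form in 1 (Ccr6) against 7.02%, and the AP-1 and interferon forms in none against 6.75% and 2.98%. The windows of Cxcr6 and Cxcr4 hold none of the 5. A match is a run of letters and not a bound site, and its absence says only that these letters are not in this window.

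Profiles over 4 libraries in 2 diets carry little detail, so likeness between genes mostly restates the size of the diet difference. Among 13521 candidate genes, the nearest to Cxcr4 by Euclidean distance of centred log2 CPM over the 4 libraries were Thada, Hsd17b12 and Mal2, at distances of 0.0112, 0.0118 and 0.0120. Nearest to Ccrl2 were Acot1, Dusp1 and Steap4, at 0.0359, 0.0372 and 0.0380, and nearest to Ackr3 were Smtn, Col4a1 and Prr5l, at 0.0336, 0.0429 and 0.0437.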

How the data were processed

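RNA-seq of 4 libraries was analysed, 2 per diet, grouped and numbered by their titles. The deposited values are whole-number counts per Ensembl gene. Per the submitters' processing notes, build GRCm38 was used with DESeq 1.8.3, featureCounts 1.5.0 and HISAT. Whether counting used strand, and how multi-gene reads were treated, is not stated in these sources. Multiples of 4 were over-represented among low counts, by a factor of 1.61 to 1.71 over neighbouring values, so a count may overstate the fragments behind it; a floor of 12 counts per library was used for genes at 0, and it covers counting error only.

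Symbols, exon lengths and positions came from GENCODE M21 (GRCm38), which named 55154 of 55421 identifiers. In R 4.3.3, genes passing filterByExpr (minimum count 10) were tested with edgeR 4.0.16's quasi-likelihood F test for diet, with TMM scaling, no replicate block and Benjamini-Hochberg adjustment over all 21563 genes. SE is the log2 change over the root of F. Sums over lists use unscaled totals. The test was run on simulated counts for this comparison (20888 genes). It recovered 2%, 18%, 72% and 98% of 50 genes each changed 1.25-fold, 1.5-fold, 2-fold and 4-fold. It also made 22 calls among unchanged genes, a larger share of all its calls than the adjusted threshold is meant to allow. In this simulation the adjusted p-values thus understated the share of false calls. Same-numbered libraries did not deviate together (r = 0.00211 across genes), so numbers were not taken as pairs.

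The receptors and lists were chosen with earlier results of these data known. Named were all 9 receptors, all other receptors and ligands, and up to 4 genes of the signalling and marker lists by smallest p. Nearest profiles of the 3 most abundant receptors were named too. Named besides were Adgre1, Csf1r, Il7r, Ly6c2, S100a8, Ly6g, Xbp1, Grk3, untested receptors and ligands, and the neighbours on chromosome 9. Some of these were named after their values were seen. An item of the receptor list is not reported here. Alternatives included DESeq2 1.42.0 and limma 3.58.1.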

Additional observations from a re-analysis of the deposited data

How the results depend on the processing

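All 9 receptors remained higher in HFD in direction under every alternative run, with 108 of 117 alternative values on the same side of the threshold. With a replicate block 9 receptors were called, with 3252 genes called higher and 2583 lower, and leaving out 1 library 8 were called, all but Cxcr4, whose log2 change then ranged from 0.18 to 0.22. Against a change of at least 2-fold, 4 receptors remained called, and Ccr6, Ccrl2, Ackr2, Ackr3 and Cxcr4 did not (log2 change 1.51, 1.13, 1.5, 0.81 and 0.20). In that test 2 of the other receptors were called higher and 1 lower, 2 signalling genes were called higher and 0 lower, and 1060 genes in all were called higher and 50 lower. Genes called lower numbered 2015 to 2174 with 1 library left out, the fewest without HFD replicate 1. Of the other chemokine receptors, 3 were called higher in each fit that left out 1 library, as with a minimum count of 40 and with counts divided by 4, where fewer genes were tested, and 4 with a replicate block. Among genes not called, the log2 change took both signs as single libraries were left out: -6.61 to 0.84 for Ccr3, -0.29 to 0.48 for Ccr9, -0.046 to 0.107 for Ccl5, -0.086 to 0.053 for Ccl12 and -0.040 to 0.133 for Lztfl1. The other settings were DESeq2's size factors, its Wald test, limma-voom, no count filter and library sizes without endocrine, acinar, immunoglobulin and most-counted genes. With 1 library left in a diet, it was assumed to vary like the other diet's. Depth limits Cxcr6, Ccr2 and Cxcr3 in NCD, at 19 to 84 counts.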
